A study of Homo sapiens with 6 samples.

Results

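The 36 genes described here encode the machinery and the cargo receptors of autophagy, and they were read in 6 poly(A) RNA libraries of the lung adenocarcinoma line H3122. They were chosen by name, 36 of the 51537 genes in the deposited table. The names in the table gave 35 of them, and ATG101 was found by its Ensembl identifier, because the table lists it under its older symbol. The study compared 3 libraries of control H3122 cells with 3 libraries of crizotinib-resistant H3122 cells. H3122 is known as a line with a fusion of EML4 and the ALK kinase gene, and crizotinib inhibits the ALK and MET kinases. To obtain the resistant cells, H3122 had been grown in rising crizotinib, starting at 0.1 and ending at 10 µM. Per the labels' protocols the medium kept the drug in effect during culture; whether drug was present at harvest is not given in the sources used here, and neither is whether the resistant cells are a clone or a pool. Whether replicates were separate cultures is not stated, so p-values measure the spread between these libraries only, which may be technical.

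Autophagy encloses cytoplasm in a double membrane and delivers it to the lysosome. A kinase complex built on ULK1 or ULK2 starts the process, a lipid kinase complex around PIK3C3 and BECN1 marks the growing membrane with a phosphoinositide, and ATG2 and ATG9 proteins supply it with lipid. Ubiquitin-like conjugation then attaches proteins of the ATG8 family (LC3 and GABARAP) to the membrane, where they hold cargo receptors such as SQSTM1, also called p62. SQSTM1 and the ATG8 proteins bound on the inner membrane are themselves degraded in the lysosome, so that mRNA levels do not report flux.

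Of the 36 genes, 35 reached 1 TPM in at least 3 libraries and were tested. TPM, a transcript abundance, is scaled by gene length and totals 1000000 per library, so levels of different genes can be set side by side. With limma and Benjamini-Hochberg adjustment over all 16077 tested genes (threshold 0.05), 10 of the 35 were called higher and 7 lower in resistant cells. Among all tested genes 48.6% were called, 24.0% higher and 24.7% lower. The share of autophagy genes called, 48.6%, was that of the whole table, so the number of calls is no result about autophagy genes. Log2 changes are differences of resistant from control libraries in log2(TPM + 1), with their standard error, and this measure understates changes of genes with low TPM. None of the 35 was called with at least a 2-fold change, against 5.98% of all tested genes, and 20 had an unadjusted p below 0.05, against 55.3% of all tested genes. Single libraries of the groups did not overlap for 19 of the 35, against 57.9% of all tested genes; ULK1, WIPI1 and ATG4A were among the 19 without passing the test. The median absolute log2 change was 0.25 in the autophagy genes and 0.27 in all tested genes, and the median signed changes were -0.048 and -0.0044.

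The libraries held an estimated 29856927 to 36695580 reads. Control replicate 1 was the lowest control library for 28 of the 35 tested autophagy genes and for 65.6% of all tested genes. Without it, 10 autophagy genes were called higher and 11 lower, against 21.2% and 25.0% (46.2% in either direction) of the 15670 genes then tested. Epithelial markers were high, with KRT8 at 6037 to 6842 TPM and EPCAM at 245 to 345 TPM. The lung lineage factor NKX2-1 was at 0 to 0.751 TPM and ALK itself at 0.154 to 0.320 TPM. The ALK level rests on an estimated 9.6 to 21.4 reads per library. EML4 fell from a mean of 43.8 to 28.0 TPM (limma adjusted p = 0.00164). Expression of an ALK fusion was not tested, and how reads of a fusion were counted is not given in the sources used here. Of 6 fibroblast markers 6 were under 1 TPM in all libraries, and so were 4 of 7 immune and 3 of 5 endothelial markers. DCN, LUM, LYZ and KDR were at 0 in all 6 libraries. The summed markers were at 0.142 to 0.295 TPM in controls and 0.216 to 0.376 TPM in resistant cells for fibroblasts, 5.83 to 6.44 and 6.11 to 7.87 TPM for immune cells, and 8.06 to 8.94 and 5.79 to 7.29 TPM for endothelium. Of the 2 endothelial genes tested, CDH5 fell from a mean of 7.24 to 3.45 TPM and PECAM1 rose from 0.912 to 2.80 TPM, and the part of such markers in the results was not tested. In such bulk RNA, fewer cells with a transcript and less of it per cell cannot be told apart.

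**Figure D1:**
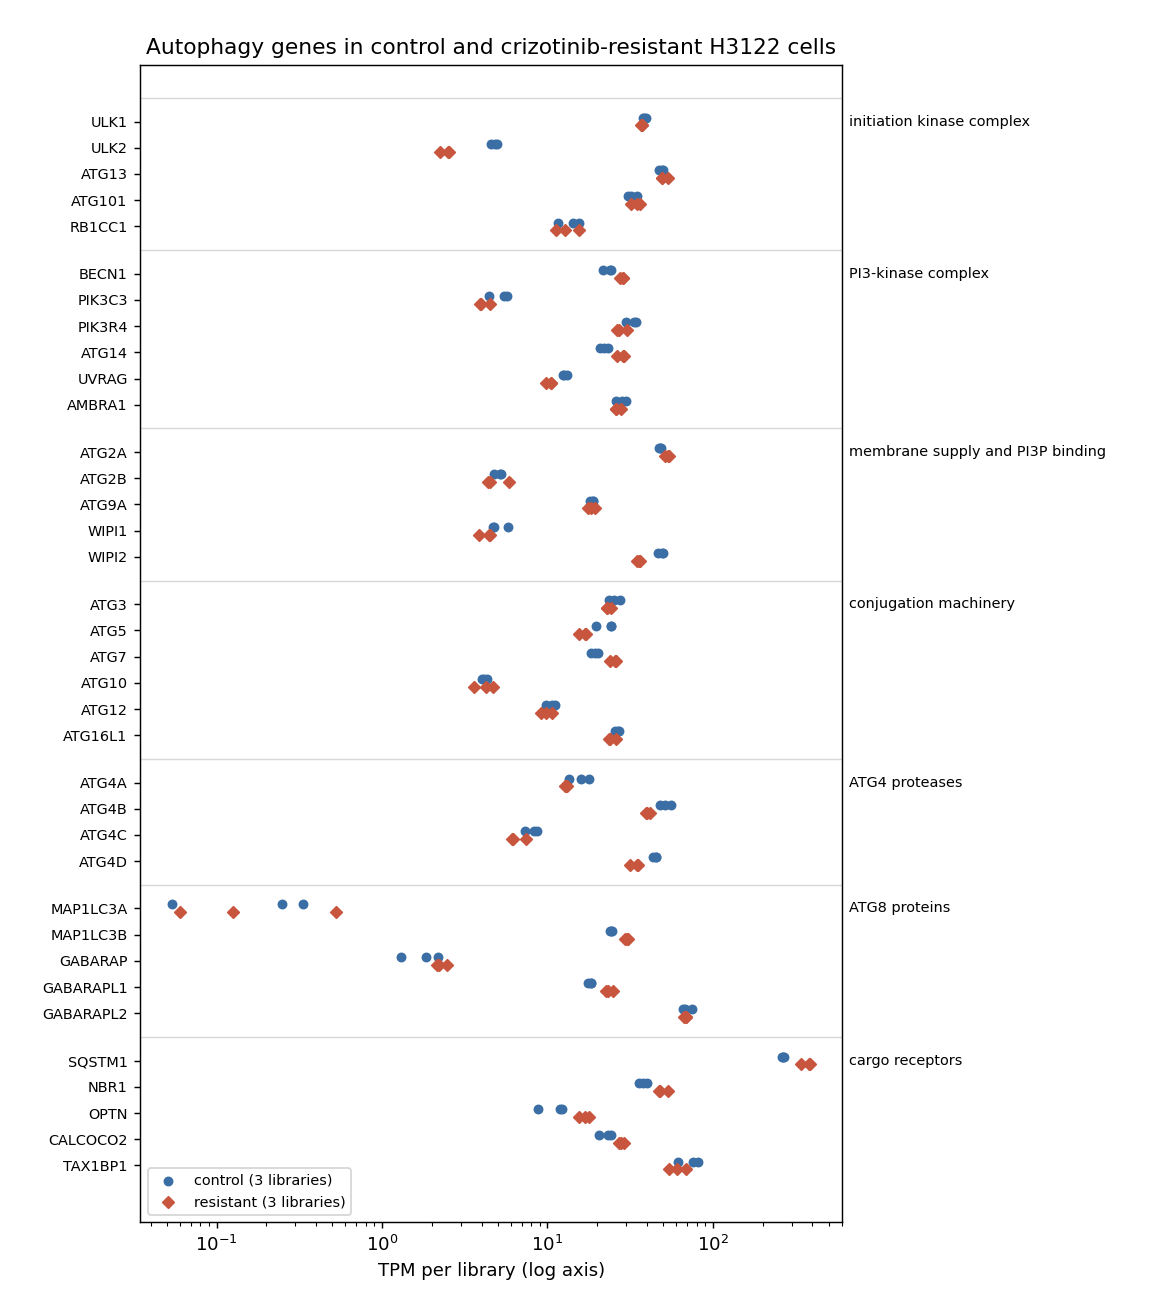
TPM of the 36 autophagy genes, on a log axis, grouped by role, with the 3 control libraries as circles and the 3 resistant libraries as diamonds. SQSTM1 is the most abundant at 262 to 389 TPM, MAP1LC3A lies below 0.53 TPM in every library, and ULK2 shows the widest gap between the groups.

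Promoter sequences are shown for 3 genes that rose and whose window held a motif match. Sequences lie before each gene's start from RefSeq on GRCh38.p14, read 5′ to 3′ on the gene's strand, and capitals mark the matched motifs. The ATG14 stretch runs up to the start, and those of CALCOCO2 and MAP1LC3B are cut and end before it. The first capital lies 21 bases before the start in ATG14 and 46 in MAP1LC3B. In CALCOCO2 the FOXO motif begins 226 and the antioxidant response element core 129 bases before it. The build the authors used is not given in the sources used here.
ATG14, chr14:55411831-55412080, minus strand, with an E-box: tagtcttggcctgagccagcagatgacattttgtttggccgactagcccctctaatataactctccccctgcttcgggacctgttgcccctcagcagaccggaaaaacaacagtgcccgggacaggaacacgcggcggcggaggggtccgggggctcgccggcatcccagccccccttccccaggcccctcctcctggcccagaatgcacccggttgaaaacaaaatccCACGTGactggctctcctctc
CALCOCO2, chr17:48830785-48830984, plus strand, with a FOXO motif and, on the other strand, an antioxidant response element core: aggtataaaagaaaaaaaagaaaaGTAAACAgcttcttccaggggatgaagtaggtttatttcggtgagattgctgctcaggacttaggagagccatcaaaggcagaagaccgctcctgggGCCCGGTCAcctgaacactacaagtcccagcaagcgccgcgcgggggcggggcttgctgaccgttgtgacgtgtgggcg
MAP1LC3B, chr16:87392280-87392309, plus strand, with an antioxidant response element core: gcgagtcaccTGACCAGGCtgcgggctgag

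A window of 250 bases was at hand for 32 of the 36 genes and for 10704 of the tested genes. For some genes, ATG5, BECN1, AMBRA1, ATG16L1 and MAP1LC3B among them, it lies far inside the gene as annotated by GENCODE. Not every window need therefore be a promoter. The E-box CACGTG, the core of sites bound by factors such as TFEB, was in 2 of the 32 windows (ATG14 and ATG3) and in 8.75% of the 10704. Its longer form TCACGTGA, the core of the CLEAR element of lysosomal genes, which contains the E-box, was in 0 of the 32 and in 1.67% of all. The antioxidant response element core TGACNNNGC was in 3 windows (ATG101, CALCOCO2 and MAP1LC3B) and in 12.2% of all. The FOXO motif GTAAACA was in 1 window (CALCOCO2) and in 2.0% of all. All were searched on both strands. ATG14, CALCOCO2 and MAP1LC3B rose, while ATG3 and ATG101, with matches to the same motifs, did not pass the test. A match is a run of letters, not a bound site, and other starts of these genes were not searched.

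Most of the cargo receptors rose. Of the 5, 4 rose, 0 fell and TAX1BP1 did not pass the test, where 24.0% of all tested genes were called higher and 24.7% lower. The 5 were not tested as a set. Their median log2 change was 0.38, against -0.0044 over all tested genes.

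SQSTM1 (chromosome 5, 179806398 to 179838078) binds ubiquitinated cargo and ATG8 proteins and also sequesters KEAP1, the inhibitor of NRF2. Its level was 266, 262 and 269 TPM in control replicates 1 to 3 and 341, 384 and 389 TPM in the resistant ones. The groups did not overlap, and the mean rose 1.40-fold, from 266 ± 3.34 to 371 ± 26.1 TPM (SD, n = 3 each). The log2 change was 0.48 ± 0.06 (limma adjusted p = 3.45e-04). SQSTM1 made up 64.9% ± 2.74 of the summed TPM of the 5 receptors in control and 70.4% ± 3.12 in resistant libraries (SD, n = 3 each), and these shares overlapped between single libraries. Another gene, MRNIP, lies on the opposite strand over 20.7% of the exon bases of SQSTM1, at a mean of 9.80 TPM in controls and 11.3 TPM in resistant cells.

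OPTN (chromosome 10, 13099449 to 13138308) encodes optineurin, a receptor for damaged mitochondria and bacteria. It was at 8.74, 12.2 and 11.9 TPM in controls and 17.9, 16.9 and 15.4 TPM in resistant cells. All 3 resistant libraries lay above all control libraries, with control replicate 1 the lowest of the 6. The log2 change, 0.58 ± 0.12 (limma adjusted p = 0.00623), was the largest increase among the autophagy genes. It was 0.44 without control replicate 1, below the 0.48 of SQSTM1 there, and without resistant replicate 1 the 2 genes were both at 0.54.

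NBR1 (chromosome 17, 43170481 to 43211689), a receptor that works together with SQSTM1 on ubiquitin condensates, was at 35.5, 40.2 and 38.0 TPM in controls and 53.7, 48.2 and 47.1 TPM in resistant cells. The groups did not overlap (log2 0.38 ± 0.07, limma adjusted p = 0.00273). A non-coding gene on the opposite strand, ENSG00000267002, covers 5.51% of the exon bases of NBR1 and moved with it, from a mean of 34.7 to 49.9 TPM. Whether the authors' counting used strand is not given in the sources used here, so reads of this pair could not be told apart.

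CALCOCO2 (chromosome 17, 48830988 to 48866522), which encodes NDP52, a receptor for bacteria and mitochondria, was at 20.5, 24.3 and 23.1 TPM in controls and 29.2, 27.9 and 27.0 TPM in resistant cells. Every resistant library was above every control library (log2 0.30 ± 0.07, limma adjusted p = 0.00987). TAX1BP1, the relative of CALCOCO2 and the second most abundant of the 36 genes in control cells, was at 61.2, 81.2 and 75.9 TPM in controls and 69.2, 54.3 and 61.0 TPM in resistant cells. Those values overlapped (log2 -0.24 ± 0.12, limma adjusted p = 0.157), and without control replicate 1 the difference passed the test at -0.35 (adjusted p = 0.0278).

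Among the ATG8 proteins, the tags that receptors bind, 2 of 4 tested genes rose and 0 fell. Over all tested genes 24.0% were called higher and 24.7% lower. MAP1LC3B, the LC3 gene most used as an autophagy marker at protein level, was at 24.0, 24.5 and 24.2 TPM in controls and 30.3, 30.7 and 29.4 TPM in resistant cells. The libraries of each group lay close together and the groups were apart (log2 0.30 ± 0.05, limma adjusted p = 0.00119). GABARAPL1 was at 17.5, 18.4 and 18.3 TPM in controls and 22.7, 25.0 and 23.3 TPM in resistant cells, again without overlap (log2 0.37 ± 0.06, limma adjusted p = 0.00142). GABARAPL2, the most abundant ATG8 gene here, was at 65.8, 74.4 and 68.1 TPM against 68.3, 69.1 and 66.5 TPM. Its resistant values lay inside the control range (log2 -0.029 ± 0.05, limma adjusted p = 0.692), and the sign turned with limma-voom scaled to library totals (0.0099).

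The make-up of the ATG8 transcripts differed accordingly. GABARAPL2 held 61.0% ± 1.35 of the summed ATG8 TPM in control and 54.7% ± 0.530 in resistant libraries (SD, n = 3 each). MAP1LC3B held 21.3% ± 0.671 and 24.2% ± 0.259, and GABARAPL1 15.9% ± 0.400 and 19.0% ± 0.683. Single libraries of the 2 groups did not overlap for these 3 shares. The summed ATG8 level was 114 ± 4.88 TPM in controls and 124 ± 2.54 TPM in resistant cells. These shares are a description with no test.

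**Figure D2:**
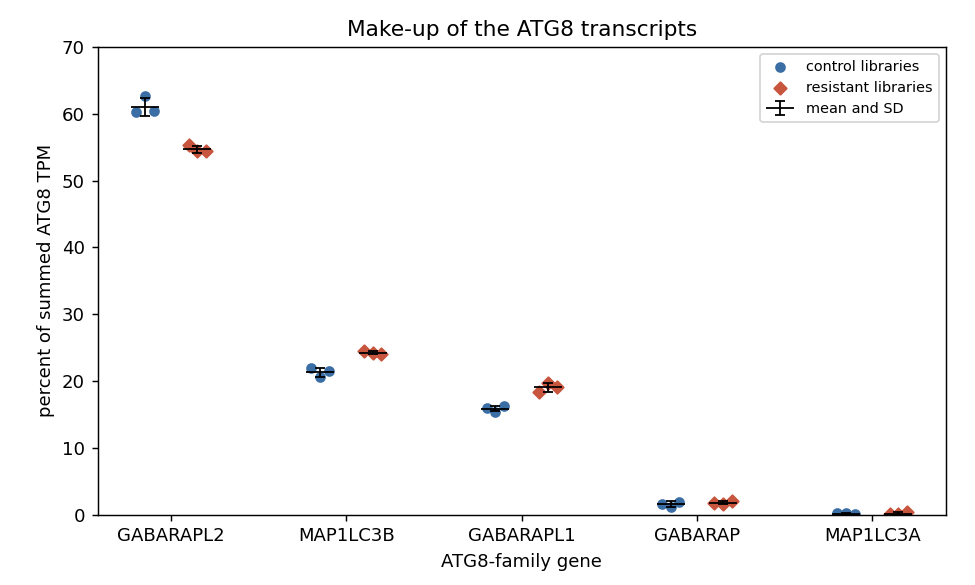
Percent of the summed TPM of the 5 ATG8 genes held by each, per library, for control libraries (circles) and resistant libraries (diamonds), with mean and SD in black. The share of GABARAPL2 was lower in resistant libraries (54.7% against 61.0%), and those of MAP1LC3B and GABARAPL1 were higher.

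MAP1LC3A was at 0.0540 to 0.335 TPM in controls and 0.0604 to 0.527 TPM in resistant cells, an estimated 1 to 9 reads, too few to detect a difference. GABARAP was listed at only 1.30 to 2.19 TPM in controls and 2.14 to 2.46 TPM in resistant cells (log2 0.25 ± 0.15, limma adjusted p = 0.224). Of the exon bases of GABARAP in GENCODE 29, 55.7% also lie in exons of other annotated genes. One of these, ENSG00000262526, shares 30.5% on the same strand and was listed at a mean of 0 TPM in both groups. How the authors' counting treated such reads is not given in the sources used here, so the level of GABARAP is uncertain, and so are the ATG8 shares in so far as they rest on it. MAP1LC3B shares 4.82% of its 50-base sequence words with the near-identical gene MAP1LC3B2, and reads there could belong to either.

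The ATG4 proteases cut ATG8 proteins before conjugation and release them from the membrane afterwards. Of the 4 genes 2 fell and 0 rose, against 24.7% called lower and 24.0% higher over all tested genes. All 4 log2 values were negative, from -0.39 to -0.25. Coding genes within 5 Mb had negative medians too, -0.46 for ATG4A, -0.30 for ATG4B and -0.40 for ATG4C, against -0.0059 for ATG4D. ATG4B, which encodes the most active of these enzymes on LC3, was at 47.8, 55.8 and 51.2 TPM in controls and 41.8, 39.6 and 40.0 TPM in resistant cells. ATG4D was at 45.3, 43.6 and 45.4 TPM in controls and 34.7, 35.3 and 31.6 TPM in resistant cells. Neither gene overlapped between groups (ATG4B log2 -0.34 ± 0.06, adjusted p = 0.00312; ATG4D -0.39 ± 0.05, adjusted p = 8.27e-04; limma). ATG4A (log2 -0.25 ± 0.10, adjusted p = 0.0643) and ATG4C (log2 -0.26 ± 0.10, adjusted p = 0.0665) did not pass, and both passed without control replicate 1 (-0.35, adjusted p = 0.00661 and -0.33, adjusted p = 0.0440). ATG4A also passed among genes that reached 5 TPM in 3 libraries (0.0443), and ATG4C without resistant replicate 1 (-0.34, adjusted p = 0.0243), and both passed with median-ratio scaling of the libraries and with limma-voom on estimated reads scaled in that way, though not scaled to library totals.

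The initiation kinases differed from each other. ULK2 (chromosome 17, 19770829 to 19867936) was at 4.95, 4.83 and 4.59 TPM in controls and 2.52, 2.25 and 2.56 TPM in resistant cells. The means, 4.79 ± 0.186 and 2.44 ± 0.168 TPM (SD, n = 3 each), differed 1.96-fold, and the gene fell by 0.75 on the log2 scale (SE 0.10, limma adjusted p = 5.73e-04). With a pseudocount of 0.1, which compresses low values less, the log2 change was -0.95. This was the largest change among the autophagy genes, on an estimated 201 to 474 reads per library. ULK1, the paralog of ULK2, was at 37.6 to 39.3 TPM in controls and 36.9 to 37.2 TPM in resistant cells (log2 -0.048 ± 0.04, limma adjusted p = 0.377). The ratio of ULK1 to ULK2 was 8.03 ± 0.492 in control and 15.2 ± 1.13 in resistant libraries (SD, n = 3 each). ATG13, the adaptor that holds the complex together and the most abundant gene of this group, was at 47.5, 49.3 and 50.3 TPM against 49.5, 53.2 and 49.3 TPM, with overlap. ATG101, its partner, and RB1CC1, which encodes the scaffold FIP200, did not pass either (limma adjusted p = 0.344 and 0.744).

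**Figure D3:**
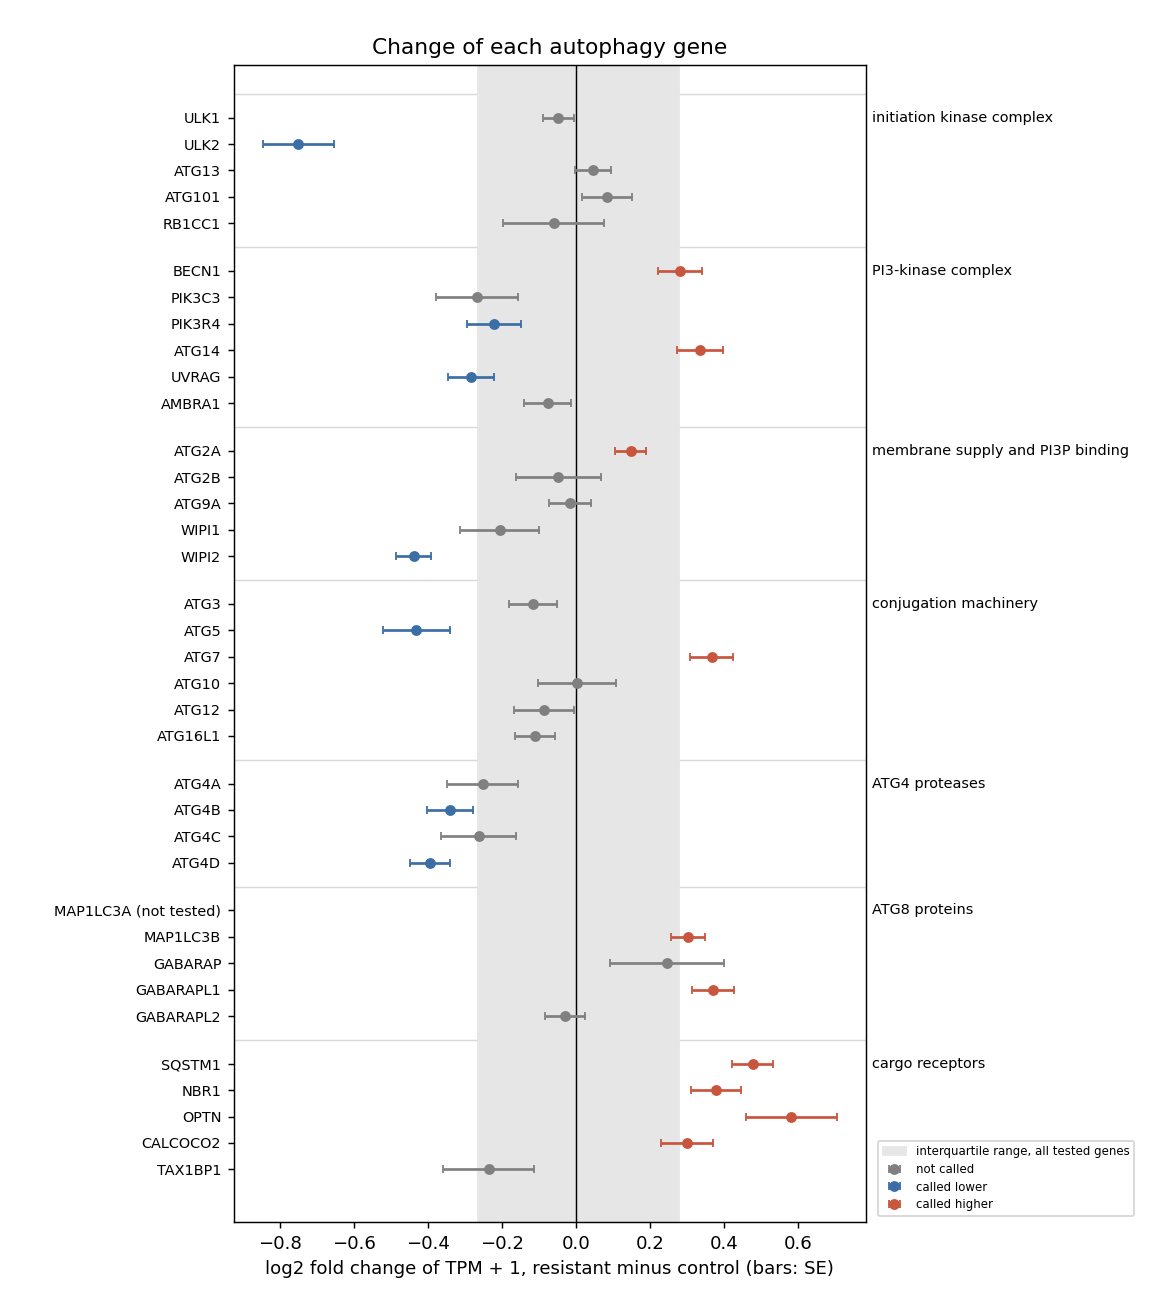
Log2 fold change of TPM + 1, resistant minus control, with its standard error, for the 35 tested autophagy genes by role; red points were called higher, blue points lower and grey points not called. The grey band is the interquartile range of all tested genes, from -0.27 to 0.28. SQSTM1, NBR1, OPTN, CALCOCO2, ATG7, GABARAPL1, ATG14, MAP1LC3B and, just beyond its edge, BECN1 lie to its right. ULK2 lies farthest to its left at -0.75.

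The lipid kinase complex went both ways. PIK3C3, its catalytic subunit also called VPS34, exists in a complex with ATG14 that starts autophagosomes and in another with UVRAG that acts at endosomes. ATG14 (chromosome 14, 55366392 to 55411858) was at 23.3, 21.9 and 20.8 TPM in controls and 29.1, 28.5 and 26.5 TPM in resistant cells (log2 0.34 ± 0.06, limma adjusted p = 0.00345). UVRAG was at 12.5, 12.6 and 13.1 TPM in controls and 10.5, 9.85 and 10.6 TPM in resistant cells (log2 -0.28 ± 0.06, limma adjusted p = 0.00722). Neither gene overlapped between groups. NRBF2, another subunit of the ATG14 form, fell from 37.0 ± 2.10 to 20.1 ± 2.25 TPM (log2 -0.85 ± 0.09, limma adjusted p = 1.92e-04). Subunits of the ATG14 form thus moved both ways. Unlike ATG14 and BECN1 (below), NRBF2 was not compared with its chromosomal neighbours. BECN1, shared by both complexes, rose from 23.2 ± 1.43 to 28.3 ± 0.667 TPM (SD, n = 3 each; log2 0.28 ± 0.06, limma adjusted p = 0.00558). PIK3C3 was at 4.45 to 5.70 and 3.93 to 4.52 TPM (log2 -0.27 ± 0.11, limma adjusted p = 0.0824) and passed without control replicate 1 (-0.36, adjusted p = 0.0316), with median-ratio scaling and with limma-voom under either scaling of the estimated reads.

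PIK3R4, the regulatory subunit VPS15, was at 29.9, 33.6 and 34.2 TPM in controls and 30.1, 26.9 and 26.3 TPM in resistant cells. It fell by 0.22 on the log2 scale (SE 0.07, limma adjusted p = 0.0386) although resistant replicate 1 lay above control replicate 1. That call was lost without control replicate 2 (adjusted p = 0.0982), control replicate 3 (0.124), resistant replicate 2 (0.102) or resistant replicate 3 (0.119), and with no filter on low values (0.0875). AMBRA1, a regulator of BECN1, did not pass (log2 -0.08 ± 0.06, adjusted p = 0.350).

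For membrane supply, WIPI2 fell and ATG2A rose slightly. WIPI2 binds the lipid made by PIK3C3 and recruits ATG16L1. It was at 46.3, 49.9 and 49.4 TPM in controls and 34.7, 35.6 and 36.3 TPM in resistant cells, with a wide gap between groups (log2 -0.44 ± 0.05, limma adjusted p = 2.54e-04). ATG2A, a lipid transfer protein, was at 47.6, 46.9 and 48.8 TPM in controls and 51.5, 54.3 and 53.4 TPM in resistant cells (log2 0.15 ± 0.04, limma adjusted p = 0.0226). This call was lost without control replicate 2 (adjusted p = 0.0828), resistant replicate 2 (0.0781) or resistant replicate 3 (0.0756), and with median-ratio scaling (0.0642). ATG2B, WIPI1 and the scramblase gene ATG9A did not pass (limma adjusted p = 0.758, 0.152 and 0.846). ATG9A shares 38.8% of its exon bases on the same strand with another annotated gene, AC068946.2, so its level is uncertain. The opposite strand of WIPI1 carries ARSG over 24.3% of its exon bases.

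Conjugation genes changed in opposite directions at 2 points of the chain. ATG7, the activating enzyme of both ubiquitin-like systems, was at 18.3, 20.2 and 19.5 TPM in controls and 25.6, 26.0 and 24.0 TPM in resistant cells (log2 0.37 ± 0.06, limma adjusted p = 0.00172). ATG5, the acceptor of ATG12, was at 19.6, 24.2 and 24.3 TPM in controls and 17.1, 15.5 and 16.9 TPM in resistant cells (log2 -0.43 ± 0.09, limma adjusted p = 0.00615). Both sets of values were free of overlap, and the ratio of ATG7 to ATG5 went from 0.857 ± 0.0698 to 1.53 ± 0.132 (SD, n = 3 each). ATG16L1, which joins ATG5 and ATG12 and is the most abundant gene of this group in control cells, was at 25.8, 26.6 and 26.9 TPM against 23.8, 25.8 and 23.6 TPM. It did not pass (log2 -0.11 ± 0.05, limma adjusted p = 0.128). The conjugating enzymes ATG3 and ATG10 and the modifier ATG12 did not pass either (limma adjusted p = 0.180, 0.986 and 0.414).

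The position of the genes was set beside their changes, a comparison chosen after seeing the data. For each called gene, the median log2 change was taken over tested protein-coding genes that start within 5 Mb and average at least 5 TPM. In 8 of the 17 called autophagy genes the change lay within 0.1 of that median, against 14.8% of 4814 called coding genes whose change was no larger than that of ULK2. BECN1, NBR1 and CALCOCO2 lie within 6.06 Mb of chromosome 17, where the medians were 0.35 (113 genes), 0.36 (124 genes) and 0.36 (86 genes). Their own log2 changes were 0.28, 0.38 and 0.30, and their windows share genes. WIPI2 on chromosome 7 had -0.44 beside a median of -0.36 over 58 genes. ATG5 on chromosome 6 had -0.43 beside -0.34 over 21 genes, and ATG4B on chromosome 2 had -0.34 beside -0.30 over 34 genes. ATG14 had 0.34 beside 0.27 over 44 genes and PIK3R4 -0.22 beside -0.20 over 43 genes. These 8 genes therefore moved by about as much as the genes around them, and the part of position in their changes was not tested.

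The other 9 called genes differed from that median by more than 0.1, ATG2A by only 0.13, close to the 0.096 of ATG5 on the other side of the limit. SQSTM1 had 0.48 beside a median of 0.0064 over 54 genes, OPTN 0.58 beside -0.047 over 21 genes, and ULK2 -0.75 beside 0.0026 over 43 genes. ATG7 had 0.37 beside 0.030 over 53 genes, MAP1LC3B 0.30 beside 0.011 over 54 genes and GABARAPL1 0.37 beside 0.097 over 62 genes. ATG4D had -0.39 beside -0.0059 over 157 genes, UVRAG -0.28 beside -0.041 over 50 genes and ATG2A 0.15 beside 0.022 over 177 genes. Of the 4 receptors that rose, SQSTM1 and OPTN thus moved apart from their neighbours, and NBR1 and CALCOCO2 moved with them. ATG4A, on the X chromosome and not called, had -0.25 beside -0.46 over 22 genes. ATG4C, on chromosome 1 and not called either, had -0.26 beside -0.40 over 26 genes.

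**Figure D4:**
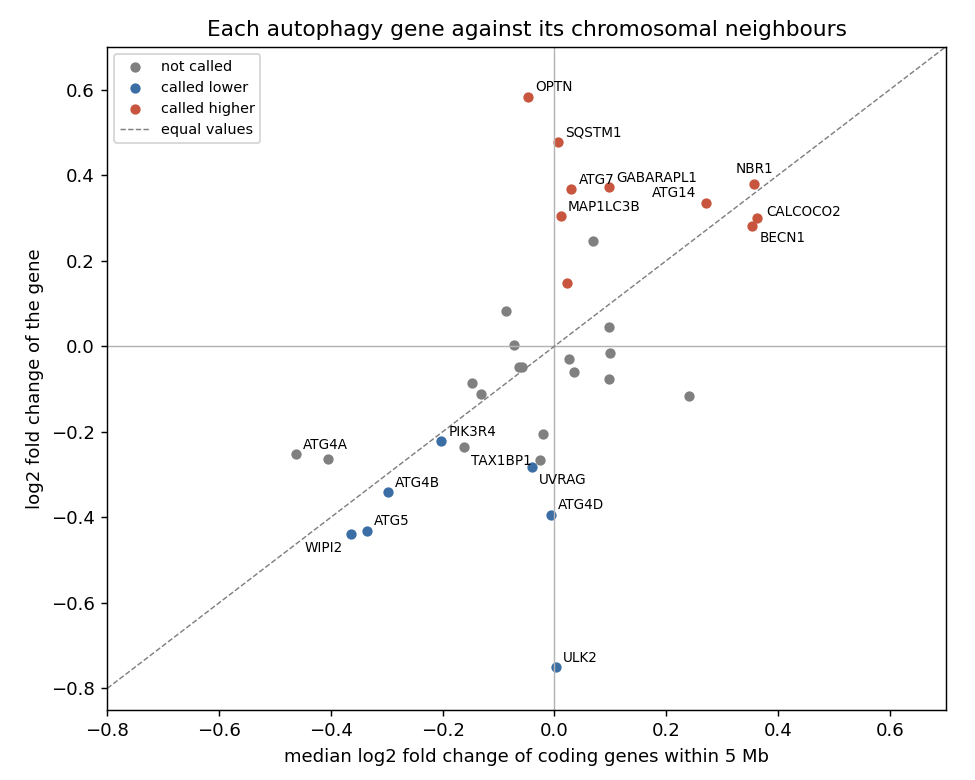
Log2 fold change of each tested autophagy gene (vertical axis) against the median log2 fold change of coding genes that start within 5 Mb (horizontal axis), with points coloured by call and a dashed line of equal values. BECN1, NBR1, CALCOCO2, ATG14, WIPI2, ATG5, ATG4B and PIK3R4 lie within 0.1 of the line, while SQSTM1, OPTN, ATG7, MAP1LC3B, GABARAPL1, ATG4D and ULK2 lie far from it near a horizontal value of 0.

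Other genes of the pathway were counted from lists of regulators and partners. They were not set beside their chromosomal neighbours. Over the 134 tested genes of these 7 lists, 25 rose and 37 fell. These are 18.7% and 27.6%, near the 24.0% and 24.7% of all tested genes, so the counts are no result about the pathway. Of 10 genes of AMPK, the energy sensor that activates ULK1, and its activators, 6 fell and 1 rose (3 fell without control replicate 2 or without resistant replicate 3). The catalytic subunits PRKAA1 and PRKAA2 fell from 74.4 ± 7.33 to 45.6 ± 3.34 TPM and from 7.56 ± 0.573 to 3.56 ± 0.617 TPM (SD, n = 3 each). The subunit gene PRKAB1 fell from 12.1 ± 0.0413 to 9.81 ± 0.457 TPM, and PRKAG2 rose from 9.09 ± 0.460 to 11.7 ± 0.444 TPM. Of 29 tested genes of mTORC1, which restrains ULK1, and of its inputs, 5 rose and 8 fell. The rising count was 3 without control replicate 1 or control replicate 3, 2 without resistant replicate 1 or resistant replicate 2, and 1 without resistant replicate 3, and it was 8 with limma-voom scaled to library totals. DEPTOR, an mTOR inhibitor, fell from 12.8 ± 1.23 to 4.61 ± 0.468 TPM. The Ragulator genes LAMTOR5 and LAMTOR4, whose products anchor mTORC1 to lysosomes, fell by 0.64 and 0.44 on the log2 scale, and SESN1, a leucine-sensing inhibitor, by 0.55. Other genes of the list, named after their values were seen, rose. RRAGA, a Rag GTPase that recruits mTORC1, rose from 84.5 ± 1.26 to 104 ± 5.20 TPM (SD, n = 3 each). Its relative RRAGD went from 0.308 ± 0.0250 to 2.10 ± 0.318 TPM. The arginine sensor CASTOR1 went from 0.321 ± 0.0534 to 1.38 ± 0.342 TPM. RRAGD and CASTOR1 are counted among the 5 that rose, though all their control libraries were under 1 TPM. They passed the filter through the resistant libraries alone, so only a rise could be called. These low levels left them out of the tested genes without any single resistant replicate.

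Transcription factors that act on autophagy genes did not share a direction. Of 14 tested, 3 rose and 4 fell (1 rose without any single control replicate, without resistant replicate 2, with no filter or with median-ratio scaling, and 5 rose with limma-voom scaled to library totals). The shares, 21.4% and 28.6%, were near the 24.0% and 24.7% of all tested genes, so the counts are no result about these factors. FOXO4 fell from 32.2 ± 1.47 to 12.5 ± 0.165 TPM (log2 -1.30 ± 0.05, limma adjusted p = 4.80e-06), and DDIT3, the stress factor CHOP, rose from 8.49 ± 0.949 to 18.0 ± 1.30 TPM (log2 1.0 ± 0.09, limma adjusted p = 1.16e-04). ATF4 fell by 0.30 and SREBF2 by 0.34 on the log2 scale. TFEB, the master factor of lysosomal genes, named after its values were seen, was at 5.01 to 5.85 TPM in controls and 5.37 to 6.57 TPM in resistant cells and did not pass (limma adjusted p = 0.289).

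Of 24 tested regulators next to the core, 4 rose and 8 fell (7 rose with limma-voom scaled to library totals). The shares were 16.7% and 33.3%, against 24.0% and 24.7% of all tested genes. TP53INP1, which binds ATG8 proteins, fell from 9.95 ± 1.47 to 2.39 ± 0.449 TPM (log2 -1.69 ± 0.14, limma adjusted p = 7.25e-05). NRBF2, a subunit of the ATG14 form of the lipid kinase complex, fell from 37.0 ± 2.10 to 20.1 ± 2.25 TPM. BCL2L1, which encodes the BECN1-binding survival protein BCL-XL, rose from 89.4 ± 5.36 to 129 ± 5.36 TPM, and ZFYVE1 rose by a log2 value of 0.47.

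Genes listed for fusion with the lysosome and other selective receptors went both ways, as did the genes of the whole table. Of 20 genes of the fusion list 4 rose and 4 fell. These are 20% each, near the 24.0% higher and 24.7% lower of all tested genes. The rising count was 2 without any single control replicate or without resistant replicate 1, and 1 without resistant replicate 2, and the falling count was 2 without control replicate 3 or resistant replicate 3. BORCS8 rose from 4.33 ± 0.192 to 6.77 ± 0.227 TPM, and TECPR1 fell from 10.3 ± 0.613 to 6.85 ± 0.428 TPM. GRAMD1A, on this list although a role in fusion is not shown here, fell by 0.34 on the log2 scale. VPS33A, a subunit of the HOPS tether, fell by 0.35 on the log2 scale (limma adjusted p = 0.0188), a call lost without control replicate 3 (0.0653) or resistant replicate 3 (0.0654). Of 27 other selective receptors and adaptors 5 rose and 7 fell, 18.5% and 25.9%, also near the shares of all tested genes. NCOA4, the receptor for ferritin, fell from 367 ± 19.1 to 255 ± 17.0 TPM, FKBP8, a mitochondrial receptor, from 375 ± 17.0 to 274 ± 11.4 TPM, and LGALS8, which detects broken vesicles, from 44.4 ± 3.73 to 25.9 ± 2.46 TPM. RETREG1, a receptor for the endoplasmic reticulum, rose from 3.74 ± 0.645 to 6.38 ± 0.689 TPM. NCOA4, FKBP8 and LGALS8, among the 7 that fell, went the other way from the 4 cargo receptors that rose. The rest of the 5 that rose, named after their values were seen, include genes of similar roles. They were BNIP3 (mean 57.0 to 68.0 TPM), BNIP3L (38.7 to 48.0), BCL2L13 (24.2 to 29.2) and LGALS3 (287 to 352). Of 10 genes listed around autophagy as ATG8-binding or ubiquitin-related, 3 rose and 0 fell (1 fell without resistant replicate 1). The 30% that rose compare with 24.0% of all tested genes. UBQLN2 rose from 87.7 ± 3.48 to 130 ± 4.23 TPM and USP13 from 5.89 ± 0.286 to 7.76 ± 0.260 TPM. UBQLN1 rose by a log2 value of 0.16 (limma adjusted p = 0.0402), a call lost without any single library (adjusted p = 0.0509 to 0.0996).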

How the data were processed

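The authors deposited 1 table of TPM for 51537 genes in 6 libraries, with each column summing to 1000000. Per the submitters' processing notes, HISAT2 was used; neither version, counter, build nor annotation is given in the sources used here. Genes were annotated with GENCODE release 29 on GRCh38.

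The 16077 genes that reached 1 TPM in 3 libraries or more were tested with limma 3.58.1 in R 4.3.3 on log2(TPM + 1) of the deposited values, control against resistant, with a mean-variance trend and robust moderation (statmod 1.5.0), two-sided, with Benjamini-Hochberg adjustment and a threshold of 0.05. The plan named this test for a TPM table. On simulated data with few true changes, the share of false calls of this fit exceeded the nominal threshold. That share was not tested in the libraries used here.

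TPM keeps no depth. Reads were estimated as TPM times union exon length over the smallest step seen in that library; 67.2% to 67.9% of values above 0 were whole within 0.01 read. At that depth 1 TPM of a 2000 bp gene is 16.9 to 21.0 reads.

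Members and lists were chosen with earlier results of these data known. All 36 members may be named. Per-library values were planned for the 14 called members with the largest change and the most abundant of each role, and further members are shown beside them. Of the other lists, up to 4 called genes with at least 5 TPM in the higher group were named. Same-numbered libraries were checked for pairing. Alternatives were a pseudocount of 0.1, no filter, a filter at 5 TPM, median-ratio scaling, a replicate block, a threshold of 0.01, leaving out each library and, chosen after seeing the data, limma-voom on estimated reads with median-ratio scaling or library totals. The neighbour, exon overlap and motif comparisons were also chosen after seeing the data.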

Additional observations from a re-analysis of the deposited data

How the results depend on the processing

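Of the 17 called autophagy genes, 15 were called in the same direction under all 14 alternatives (ULK2 was left out by the filter at 5 TPM); the exceptions were PIK3R4 and ATG2A. Counts of members were 9 to 10 higher and 6 to 11 lower without 1 library, 9 and 10 with median-ratio scaling, 10 and 10 with limma-voom on estimated reads scaled by median ratios, and 10 and 8 with limma-voom scaled to library totals. The replicate block gave 9 higher and 6 lower members and 6856 called genes in all, against 7815 without it. Same-numbered libraries did not deviate together (r = -0.058, -0.0017 and -0.016 across genes), so the numbers were not treated as pairs; under the block PIK3R4 (adjusted p = 0.102), ATG2A (0.0508), VPS33A (0.0620) and UBQLN1 (0.0862) lost their call, and UBQLN1 also without a filter (0.0809). All genes called ranged from 6247 to 7244 without 1 library. ATG10, not called, turned to -0.0042 with median-ratio scaling. With limma-voom scaled to library totals, ATG9A turned to 0.022 and GABARAPL2 to 0.0099, neither called. Without 1 library, genes not called ranged across 0: ATG10 from -0.066 to 0.086, RB1CC1 from -0.18 to 0.040, ATG2B from -0.16 to 0.013, ATG9A from -0.049 to 0.018 and GABARAPL2 from -0.067 to 0.022. The MAP1LC3A share, on 1 to 9 reads, differed by -0.11 to 0.079 percentage points. The cause of these shifts was not tested. Depth limits MAP1LC3A and GABARAP, the latter on an estimated 25 to 54 reads.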
